A study of Homo sapiens with 18 samples.

Results

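The genes described here are the chaperones, folding enzymes, stress sensors and degradation factors of the endoplasmic reticulum (ER). They were taken from a list of 36 gene symbols, each required to reach a mean of 1 TPM (a share of all transcripts, corrected for gene length) over all libraries, and all 36 of the 45372 symbols in the table met this. By role they were 11 Hsp70 and Hsp90 chaperones with their co-chaperones, 3 lectin chaperones, 10 disulfide and prolyl isomerases, 3 sensors and transcription factors of the unfolded protein response (UPR), 8 genes of ER-associated degradation (ERAD) and 1 translocon subunit. The RNA sequencing covered MV4-11 and THP1, acute myeloid leukemia cell lines of human origin that both carry a *KMT2A* rearrangement, so results in each line describe that line alone. Each line had 3 DMSO (vehicle) libraries and 3 libraries at each of 8 h and 24 h in 50 nM IACS-010759 (IACS), which makes 18 in all. IACS inhibits complex I of the mitochondrial respiratory chain. The timepoint of the DMSO cells was not given, and the same 3 DMSO libraries of a line served both timepoints, so the 8 h and 24 h comparisons with DMSO are not independent.

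Secreted and membrane proteins enter the ER through the Sec61 channel and are folded there by BiP (*HSPA5*), GRP94 (*HSP90B1*), calreticulin and calnexin, while protein disulfide isomerases form and rearrange their disulfide bonds. Proteins that fail to fold are passed back to the cytosol and degraded by the proteasome, which is ERAD. When unfolded proteins accumulate, ATF6, IRE1 (*ERN1*) and PERK start the UPR: ATF6 and XBP1 bind ER stress response elements in promoters of chaperone genes, and PERK raises translation of ATF4, which is also reached from other kinases in the integrated stress response.

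The lines expressed markers of the myeloid lineage. *SPI1* was between 85.6 and 147 TPM in all 18 libraries and *LYZ*, lysozyme, between 613 and 7073 TPM. Among markers of other cell types, *HBB* was at 0 in all libraries, *CD3E*, *EPCAM*, *ALB*, *COL1A1* and *GFAP* were at most 0.442 TPM, and *PECAM1*, which monocytes also express, reached 69.7 TPM. The depth estimated from the TPM and exon lengths was 21.7 to 28.6 M reads or read pairs per library. *DERL3*, the member with the lowest level, rested on a median of 121 and at most 227 of them and the other 35 members on at least 131. The 5 most abundant noncoding RNAs held 39.6% to 60.1% of the TPM, and since the TPM of a library have a fixed sum, a library in which they held more showed lower TPM for the other genes. Replicate 3 stood apart in both lines. In MV4-11 given IACS these RNAs held 39.6% at 8 h and 42.9% at 24 h in replicate 3 against 47.8% to 51.9% in the other replicates, and in THP1 they held 55.8% to 60.1% in replicate 3 of the 3 groups against 46.3% to 54.5% in the others. Of the TPM without these RNAs, the 36 genes held 0.714% to 0.743% in DMSO, 0.610% to 0.627% at 8 h and 0.553% to 0.603% at 24 h in MV4-11, and 0.875% to 0.951%, 0.779% to 0.884% and 0.715% to 0.797% in THP1. In bulk RNA, fewer cells expressing a gene and less of its RNA per cell cannot be told apart.

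Some of the 36 genes carry a known promoter element of the UPR. The ER stress response element (ERSE) is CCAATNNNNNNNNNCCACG, bound by NF-Y at CCAAT and by ATF6 or XBP1 at CCACG, and a compact form, ERSE-II, is ATTGG and CCACG with any base between them. RefSeq promoters (GRCh38.p14, 250 bases before to 50 bases after each start) were searched on both strands, and 33 of the 36 genes had an entry. *PDIA3*, *DERL1* and *DERL3* had no entry. ERSE was found in 7 of 33 genes (21.2%), *HSPA5*, *HSP90B1*, *CRELD2*, *CALR*, *CANX*, *PDIA6* and *XBP1*, against 0.0916% of all 27305 genes and 0.0769% of the 35116 promoters in the table. ERSE-II was found in 3 (*SDF2L1*, *HYOU1* and *HERPUD1*) against 0.0696% of all genes. The elements of 5 genes are shown, 4 that fell in THP1 at 24 h under a paired test and *XBP1*, with the element in capitals and 5 bases on each side in lower case, on the strand of the gene.
*HSPA5*, chr9:125241386-125241414, minus strand: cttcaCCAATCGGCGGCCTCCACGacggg
*CALR*, chr19:12938379-12938407, plus strand: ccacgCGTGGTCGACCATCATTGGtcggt
*CRELD2*, chr22:49918549-49918577, plus strand: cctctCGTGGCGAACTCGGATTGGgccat
*XBP1*, chr22:28800598-28800626, minus strand: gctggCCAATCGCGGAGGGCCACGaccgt
*SDF2L1*, chr22:21642109-21642129, plus strand: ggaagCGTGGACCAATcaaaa

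In *HSPA5* and *XBP1* the element reads along the gene, and in *CALR*, *CRELD2* and *SDF2L1* it lies on the other strand. It starts 66 bases before the start of *HSPA5*, 225 before *CALR*, 80 before *CRELD2*, 52 before *XBP1* and 188 before *SDF2L1*. None of these windows overlaps an exon in GENCODE release 44, and that of *CRELD2* lies within the gene, upstream of one of its starts. The UPRE core TGACGTGG was found in *HYOU1*, *TXNDC5* and *DNAJC10* (9.09%, against 0.927% of all genes) and the C/EBP-ATF element TGATGNAAN, which ATF4 can bind, in *HERPUD1* (3.03%, against 4.45%).

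In DMSO the same genes dominated ER folding transcripts in each line. TPM are per length, so levels can be compared between genes. *CALR* (calreticulin) had the highest level in each line, 630 ± 22.9 TPM in MV4-11 and 891 ± 164 TPM in THP1 (SD, n = 3 each). *CALR*, *P4HB*, *CANX*, *HSP90B1* and *PPIB* were the 5 highest in each line, and together they made up 54.2% of the summed TPM of the 36 genes in MV4-11 and 57.2% in THP1. *P4HB*, the founding protein disulfide isomerase, ranked 2 in MV4-11 at 516 ± 35.9 TPM and 5 in THP1 at 373 ± 7.36 TPM. At the other end, *DERL3* was at 4.48 ± 0.175 TPM in MV4-11 and 3.02 ± 1.03 TPM in THP1.

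The lines differed in 11 of the 36 genes in DMSO, 7 higher and 4 lower in THP1. A gene was called with an adjusted p below 0.05 (limma, Benjamini-Hochberg over all genes tested) and a change of more than 1.5-fold on TPM + 1. Of the 14117 genes tested, 19.7% were higher and 17.2% lower in THP1, so that 7 and 4 of 36 are near that background. Single libraries moved these counts: 3 were higher and 5 lower without THP1 DMSO replicate 1, and 13 higher and 3 lower without THP1 DMSO replicate 3. The shares of all genes called in those fits are not given here. *EDEM1*, a mannosidase-like protein that hands misfolded glycoproteins to ERAD, was at 53.3, 51.0 and 46.3 TPM in MV4-11 and at 123, 123 and 124 TPM in THP1, without overlap (log2 difference 1.28 ± 0.108 SE, adjusted p = 8.85e-09). *TXNDC5*, a thioredoxin-domain disulfide isomerase, was at 96.2 to 102 TPM in MV4-11 and at 22.1 to 30.6 TPM in THP1 (log2 difference -1.92 ± 0.189 SE, adjusted p = 7.56e-08). These 2 were the furthest apart of the 36 in each direction.

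The 3 UPR genes differed in opposite directions between the lines. *ERN1*, which encodes the kinase and endonuclease IRE1, was lower in THP1 (log2 difference -1.10 ± 0.125 SE, adjusted p = 5.30e-07), and so was *XBP1*, the transcription factor whose mRNA IRE1 cleaves (-0.62 ± 0.136 SE, adjusted p = 0.000889). *ATF6* was higher in THP1 (0.63 ± 0.112 SE, adjusted p = 0.000116). Gene-level TPM do not separate the spliced from the unspliced *XBP1* mRNA. The other genes called higher in THP1 were *CRELD2* (0.80), *SIL1*, the nucleotide exchange factor of BiP (0.69), *ERP44*, which retains proteins in the early secretory pathway (0.65), *HSP90B1* (0.64) and *DNAJC10*, a disulfide reductase (0.63). *DERL2*, a derlin of the ERAD channel, was lower (-0.84).

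**Figure D1:**
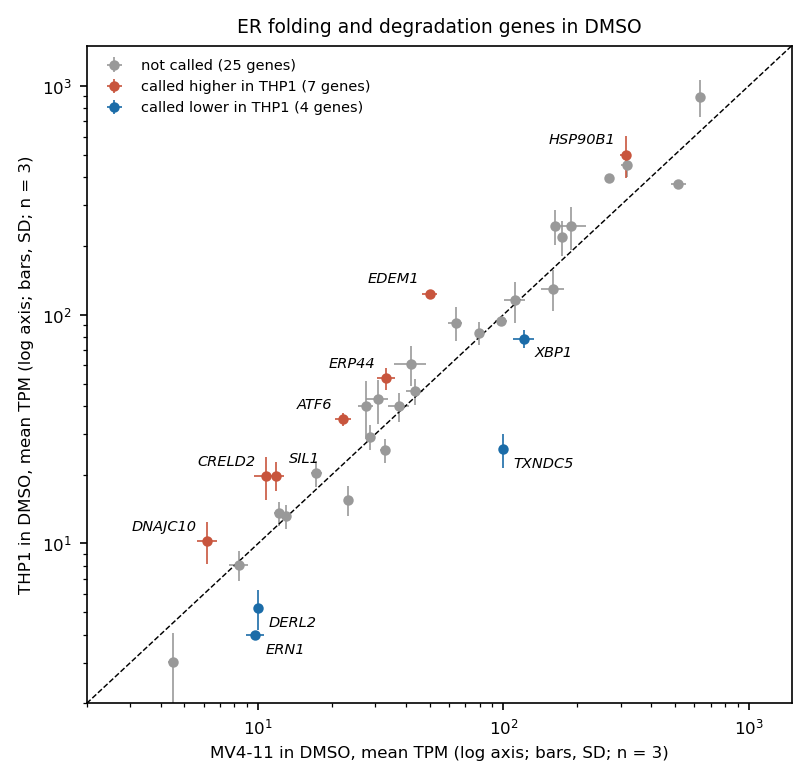
Mean TPM of the 36 genes in DMSO in MV4-11 (horizontal log axis) and THP1 (vertical log axis), with SD bars over 3 libraries and the line of equal levels dashed. The 7 genes called higher in THP1 lie above the line, with *EDEM1* furthest from it, and the 4 called lower lie below it, with *TXNDC5* furthest.

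To ask how complex I inhibition affected ER folding genes, each line was compared between IACS and DMSO. Hsp70 and Hsp90 chaperones had the lowest median fold change of the roles in each comparison, and ERAD genes were near the median of all genes. The median log2 fold change of the 36 genes was -0.10 at 8 h and -0.14 at 24 h in MV4-11, where the median of all genes tested was 0.06 and 0.08. In THP1 it was -0.21 at 8 h and -0.32 at 24 h, where the median of all genes was -0.12 at both times. The counts below 0 were 26 and 27 of 36 in MV4-11, where 33.1% and 34% of all genes were below 0, and 31 and 32 of 36 in THP1, where 83.6% and 72.8% were. At 8 h in THP1 this is near the background.

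Without regard to replicate numbers, 0 of the 36 genes were called in any of these 4 comparisons by limma. Of all genes tested, in either direction, 0.0148% were called at 8 h and 0.0886% at 24 h in MV4-11 (n = 13542), and 0.0144% at 8 h and 0.0431% at 24 h in THP1 (n = 13928). At an unadjusted p below 0.05 with the same fold, 1 of 36 was lower in MV4-11 at 8 h (*HSPA5*; 0.140% of all genes), 2 at 24 h (*HSPA5* and *CALR*; 0.273%), 0 in THP1 at 8 h (0.625%) and 6 at 24 h (1.74%), and 0 were higher in any. A Kruskal-Wallis test with the same limits called 1, 2, 0 and 5 lower. With 3 libraries in each group this test passes only where the groups do not overlap, so it repeats that separation. All IACS libraries lay below DMSO for 1.65%, 5.26%, 4.06% and 10.2% of all genes, before any fold limit. The share of all genes that passed the Kruskal-Wallis test with the fold limit is not given here, so these counts have no matching background.

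Same-numbered THP1 libraries of DMSO and 24 h departed from their group means in a correlated way. In a fit of all 9 THP1 libraries that took the number as a block, 6 of 36 genes fell at 24 h: *HSPA5*, *DNAJB11*, *SDF2L1*, *MANF*, *CRELD2* and *CALR*. In that fit 1.73% of all genes tested were called lower. On the adjusted p alone, without a minimum fold, 17 of 36 were lower and 0 higher, against 11.1% of all genes lower. With the block and median-of-ratios scaling 4 remained called (0.698% of all genes), while *DNAJB11* at -0.48 and *CALR* at -0.48 missed the fold limit (adjusted p = 0.00614 and 0.00960). *HSPA5*, *CALR* and *SDF2L1* are among the targets of a knockout library that the study chose partly from transcripts changed in these libraries, so they may not be independent of that choice.

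**Figure D2:**
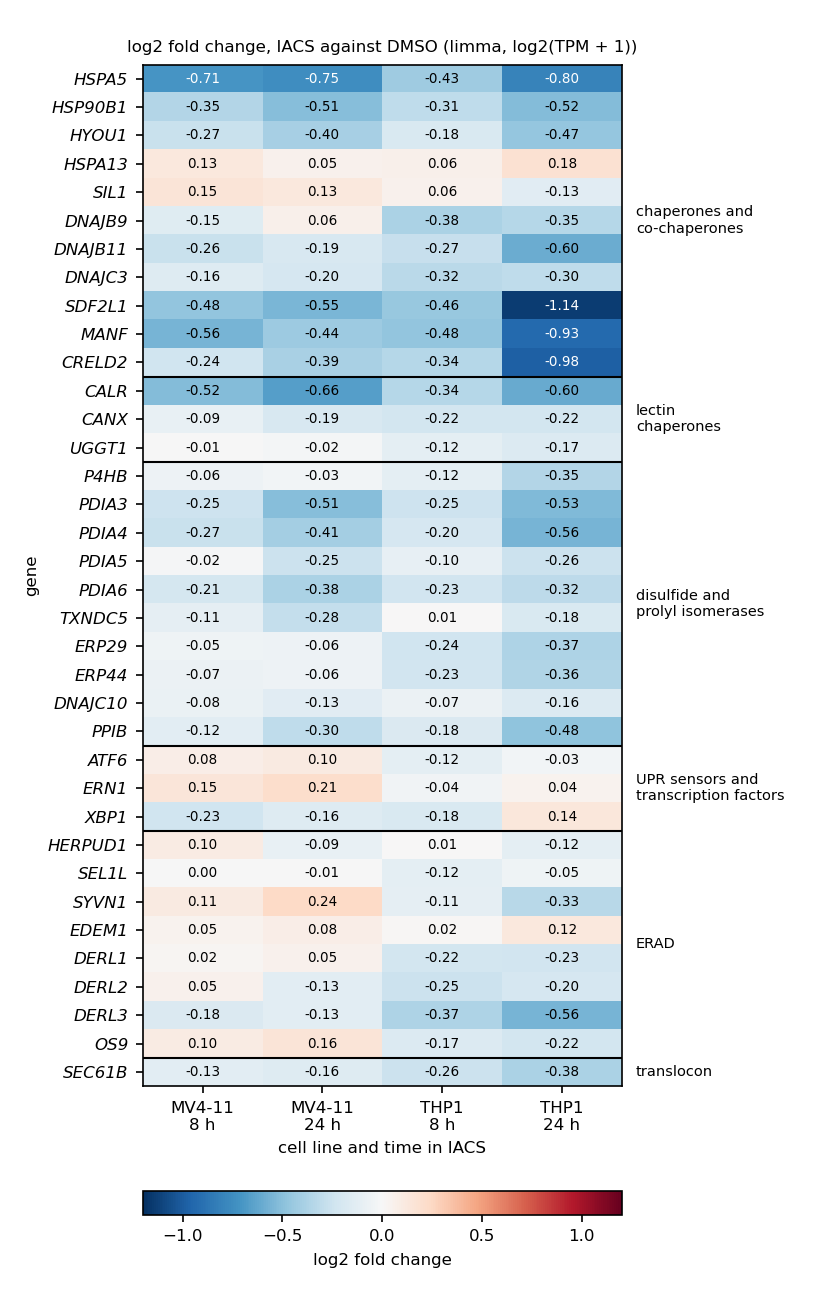
Log2 fold change of IACS against DMSO on log2(TPM + 1) for the 36 genes (rows, by role) in the 4 comparisons (columns), blue for lower and red for higher. The deepest blue is *SDF2L1* in THP1 at 24 h (-1.14), followed by *CRELD2* (-0.98) and *MANF* (-0.93) there, while sensors and most ERAD genes are pale in every column.

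Many of the 36 genes were separated between groups. All 3 IACS libraries lay below all 3 DMSO libraries for 6 of 36 genes in MV4-11 at 8 h (16.7%, against 1.65% of all genes tested) and for 12 at 24 h (33.3%, against 5.26%). In THP1 this was so for 1 gene at 8 h (*DNAJB9*; 2.78%, against 4.06%) and for 13 at 24 h (36.1%, against 10.2%). The reverse, all IACS libraries above DMSO, held for *ERN1* in MV4-11 at 8 h, *SYVN1* in MV4-11 at 24 h and *EDEM1* in THP1 at 24 h, 1 of 36 each time (2.78%, against 7.13%, 19.4% and 3.32% of all genes).

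Among the Hsp70 and Hsp90 chaperones and co-chaperones, 9 of 11 log2 fold changes were below 0 at 8 h in each line. At 24 h this was so for 8 of 11 in MV4-11 and 10 of 11 in THP1. In THP1 at 8 h 11643 of all 13928 genes were below 0, so that count is near the background. The shares of all genes in the other comparisons are given above. The median of these chaperones was -0.26 at 8 h and -0.39 at 24 h in MV4-11, and -0.32 and -0.52 in THP1. *HSPA5* encodes BiP, the main Hsp70 of the ER lumen, which also holds the UPR sensors inactive (chr9:125234853-125241382, minus strand, GRCh38, GENCODE release 44). It was at 190.0, 216 and 160.2 TPM in DMSO in MV4-11, at 99.9, 101 and 148 TPM after 8 h and at 113, 119 and 101 TPM after 24 h. In THP1 it was at 276, 269.7 and 184 TPM in DMSO, at 192, 225 and 129 TPM after 8 h and at 146, 165 and 106 TPM after 24 h. The groups did not overlap in MV4-11 at either time nor in THP1 at 24 h, and replicate 3 of MV4-11 at 8 h lay closest to DMSO. The log2 fold change was -0.71 ± 0.166 (SE, adjusted p = 0.503) and -0.75 ± 0.166 (adjusted p = 0.117) in MV4-11 at 8 h and 24 h. In THP1 it was -0.43 ± 0.233 at 8 h (adjusted p = 0.941) and -0.80 at 24 h, with an SE of 0.233 and adjusted p = 0.433 without the block and 0.0844 and 0.0007995 with it. The 24 h level was 0.528, 0.613 and 0.575 of DMSO in THP1 libraries of the same number.

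*SDF2L1* had the largest fold change of the 36 genes. It encodes a partner of the ER-resident DnaJ proteins that helps keep unfolded proteins soluble (chr22:21642302-21644299, plus strand). THP1 had 67.1, 68.4 and 46.8 TPM in DMSO, at 50.4, 51.5 and 31.3 TPM after 8 h and at 29.0, 32.4 and 19.96 TPM after 24 h. The 24 h libraries lay below every DMSO library and at 0.432, 0.473 and 0.427 of the DMSO library of the same number. The log2 fold change at 24 h was -1.14 (SE 0.0834, adjusted p = 7.09e-05 with the block and 0.162 without it). In MV4-11 it was at 34.8, 45.6 and 45.6 TPM in DMSO, at 25.6, 25.0 and 40.7 TPM after 8 h and at 22.5, 24.1 and 41.5 TPM after 24 h. There replicate 3 lay within the DMSO range at both times, and the log2 fold changes of -0.48 at 8 h and -0.55 at 24 h were not called (adjusted p = 0.983 and 0.383).

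*MANF* and *CRELD2* encode small ER proteins that cells secrete under ER stress. *MANF* (chr3:51385291-51389397, plus strand) was at 49.5, 46.5 and 32.1 TPM in THP1 in DMSO, at 33.5, 40.5 and 19.5 TPM after 8 h and at 22.7, 27.6 and 16.0 TPM after 24 h (24 h log2 fold change -0.93, adjusted p = 0.00130 with the block and 0.433 without it). *CRELD2* (chr22:49918167-49927540, plus strand) was at 22.4, 21.9 and 14.8 TPM, then 16.7, 17.8 and 11.5 TPM and then 9.75, 11.8 and 7.12 TPM (-0.98, adjusted p = 0.000359 with the block and 0.272 without it). For each of them the 24 h libraries lay below all DMSO libraries. In MV4-11 *MANF* was at 31.4, 33.5 and 27.3 TPM in DMSO, at 19.1, 17.2 and 26.1 TPM after 8 h and at 19.7, 19.4 and 29.1 TPM after 24 h. *CRELD2* was at 9.43, 11.5 and 11.4 TPM, then 7.87, 7.35 and 12.2 TPM and then 6.96, 6.38 and 11.2 TPM. Replicates 1 and 2 of MV4-11 in IACS lay below DMSO for each gene and replicate 3 did not, save *MANF* at 8 h, where all 3 did.

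*DNAJB11*, a DnaJ co-chaperone of BiP (chr3:186567403-186585800, plus strand), was at 49.1, 43.1 and 27.4 TPM in THP1 in DMSO, at 33.8, 41.3 and 23.0 TPM after 8 h and at 26.9, 30.5 and 19.5 TPM after 24 h. Its 24 h fold change was -0.60 (adjusted p = 0.00607 with the block and 0.552 without it), and replicate 2 at 24 h lay above replicate 3 of DMSO, so the groups overlapped. In MV4-11 it was at 28.5, 28.7 and 25.1 TPM in DMSO, at 21.8, 21.9 and 24.3 TPM after 8 h and at 25.2, 22.9 and 23.4 TPM after 24 h.

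*HSP90B1*, GRP94, the Hsp90 of the ER, was at 325, 322 and 296 TPM in MV4-11 in DMSO, at 229, 229.7 and 283 TPM after 8 h and at 219, 217 and 227 TPM after 24 h. The THP1 libraries were at 599, 507 and 390.4 TPM, then 422, 489 and 302 TPM and then 375, 384 and 281 TPM. The IACS libraries lay below DMSO in MV4-11 at each time and in THP1 at 24 h. The log2 fold changes were -0.35 and -0.51 in MV4-11 and -0.31 and -0.52 in THP1 at the 2 times, none past the fold limit with TPM as deposited. With median-of-ratios scaling *HSP90B1* was called in MV4-11 at 24 h (-0.61, adjusted p = 0.0147). *HYOU1*, an Hsp110-like exchange factor, *DNAJC3* and *DNAJB9*, further DnaJ proteins, had 24 h values of -0.40, -0.20 and 0.06 in MV4-11 and of -0.47, -0.30 and -0.35 in THP1. *HSPA13*, a microsomal Hsp70 relative, stood at the other end of this group. It was at 18.2, 16.5 and 17.1 TPM in MV4-11 in DMSO, at 17.3, 18.6 and 21.1 TPM after 8 h and at 18.01, 17.8 and 17.9 TPM after 24 h. Values in THP1 were 23.2, 19.4 and 18.2 TPM, then 20.02, 25.7 and 18.2 TPM and then 26.0, 23.0 and 20.2 TPM, and the groups overlapped throughout. *SIL1* had fold changes between -0.13 and 0.15.

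**Figure D3:**
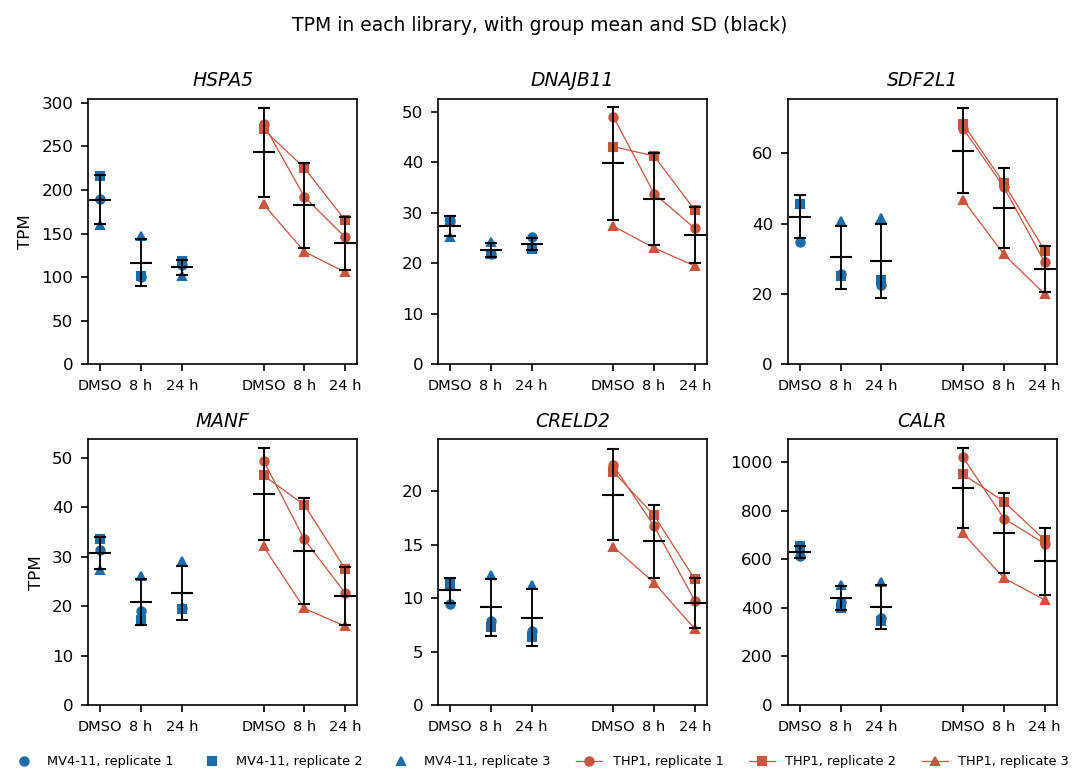
TPM (vertical axes from 0) of the 6 genes called lower in THP1 at 24 h with the replicate block, in each library of MV4-11 (blue) and THP1 (red) in DMSO and after 8 h and 24 h of IACS, with group mean and SD in black and lines joining THP1 libraries of the same number. In THP1 each line drops from DMSO to 24 h with replicate 3 (triangles) lowest, and in MV4-11 replicate 3 lies nearest to DMSO in IACS for *SDF2L1*, *MANF*, *CRELD2* and *CALR*.

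Of the lectin chaperones, which hold glycoproteins during folding, *CALR* had the lowest fold change (chr19:12938578-12944489, plus strand). It was at 613, 656 and 620.3 TPM in MV4-11 in DMSO, at 424, 400.5 and 495 TPM after 8 h and at 357, 347 and 508 TPM after 24 h. For THP1 they were at 1019, 949 and 706 TPM in DMSO, at 767, 837 and 523 TPM after 8 h and at 664, 679 and 432 TPM after 24 h. No library overlapped between DMSO and IACS in MV4-11 at either time nor in THP1 at 24 h. The log2 fold changes were -0.52 ± 0.159 and -0.66 ± 0.159 (SE) in MV4-11 at 8 h and 24 h (adjusted p = 0.983 and 0.135) and -0.60 in THP1 at 24 h (adjusted p = 0.00313 with the block and 0.517 without it). *CANX*, its membrane-bound relative, had values of -0.09, -0.19, -0.22 and -0.22 in the order MV4-11 8 h and 24 h, THP1 8 h and 24 h. *UGGT1*, the glucosyltransferase that returns unfolded glycoproteins to these chaperones, was at 46.3, 45.0 and 39.7 TPM in MV4-11 in DMSO and 44.3, 42.2 and 42.1 TPM after 24 h, and at 52.3, 46.9 and 40.04 TPM in THP1 in DMSO and 43.3, 42.7 and 37.4 TPM after 24 h. At 8 h it was at 40.6, 42.7 and 47.1 TPM in MV4-11 and 42.1, 49.3 and 36.7 TPM in THP1, and its groups overlapped throughout.

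All 10 disulfide and prolyl isomerases had log2 fold changes below 0 in MV4-11 at each time and in THP1 at 24 h, and 9 of 10 in THP1 at 8 h. The last count is near the background, as 11643 of all 13928 genes were below 0 there. The medians of the isomerases were -0.09, -0.27, -0.19 and -0.36 in the order MV4-11 8 h and 24 h, THP1 8 h and 24 h. With TPM as deposited limma called none, with or without the block, while in MV4-11 at 24 h *PDIA3* passed as lower under median-of-ratios scaling and *PDIA4* without replicate 3 of each group. *PDIA3*, which works with calreticulin and calnexin on glycoproteins, was the lowest on average. It was at 176, 179 and 167 TPM in MV4-11 in DMSO, at 141, 138 and 161 TPM after 8 h and at 119.8, 117 and 129.6 TPM after 24 h. In THP1 it was at 252, 227 and 178 TPM, then 193, 211 and 148 TPM and then 159, 169.7 and 126 TPM. IACS libraries lay below DMSO at both times in MV4-11 and at 24 h in THP1, and the 24 h log2 fold changes were -0.51 ± 0.111 (SE, adjusted p = 0.115) and -0.53 ± 0.179 (adjusted p = 0.506). The 24 h values of *PDIA4*, *PDIA6* and *PPIB*, the ER cyclophilin, were -0.41, -0.38 and -0.30 in MV4-11 and -0.56, -0.32 and -0.48 in THP1. *P4HB*, *ERP29* and *ERP44* were close to 0 in MV4-11 at 24 h (-0.03, -0.06 and -0.06) and at -0.35, -0.37 and -0.36 in THP1. *PDIA5* and *TXNDC5* had 24 h values of -0.25 and -0.28 in MV4-11 and -0.26 and -0.18 in THP1. *DNAJC10* was nearest to 0 on average, at 6.85, 5.98 and 5.79 TPM in MV4-11 in DMSO, 5.76, 5.85 and 5.85 TPM after 8 h and 5.61, 5.44 and 5.64 TPM after 24 h. THP1 had 12.4, 10.2 and 8.18 TPM, then 9.89, 11.6 and 7.67 TPM and then 9.93, 9.36 and 7.73 TPM.

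The UPR sensors and *XBP1* had medians of 0.08, 0.10, -0.12 and 0.04, and none of the 3 was called. *ATF6*, a membrane-bound transcription factor released by cleavage, was at 23.7, 22.6 and 20.3 TPM in MV4-11 in DMSO, at 22.4, 23.2 and 25.0 TPM after 8 h and at 25.1, 24.6 and 22.0 TPM after 24 h. The THP1 libraries were at 37.3, 34.2 and 33.0 TPM, then 31.0, 36.2 and 29.1 TPM and then 35.5, 34.1 and 32.7 TPM. The groups overlapped in each case. *ERN1* was at 10.2, 10.2 and 8.78 TPM in MV4-11 in DMSO, at 10.4, 10.7 and 11.5 TPM after 8 h, all above DMSO, and at 12.5, 12.4 and 9.54 TPM after 24 h. Values in THP1 were 3.98, 3.87 and 4.11 TPM, then 3.41, 4.31 and 3.87 TPM and then 3.95, 4.56 and 3.86 TPM. Its log2 fold changes were 0.15, 0.21, -0.04 and 0.04, with SE of 0.127 in MV4-11 and 0.145 in THP1. *XBP1* was at 128, 128 and 108 TPM in MV4-11 in DMSO, at 99.9, 96.9 and 111 TPM after 8 h and at 109.8, 109 and 105 TPM after 24 h. For THP1 they were at 83.5, 81.4 and 70.6 TPM, then 73.2, 78.0 and 57.1 TPM and then 96.7, 91.5 and 72.8 TPM, higher at 24 h than in DMSO in every pair of the same number. Its log2 fold changes of -0.23, -0.16, -0.18 and 0.14 had adjusted p of 0.983, 0.620, 0.941 and 0.798.

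The 8 ERAD genes had medians of 0.05 and 0.02 in MV4-11 and of -0.14 and -0.21 in THP1 at 8 h and 24 h, close to all genes (0.06, 0.08, -0.12 and -0.12), and none was called. *HERPUD1*, a membrane scaffold of the degradation complex, was at 23.2, 22.9 and 23.6 TPM in MV4-11 in DMSO, at 20.8, 22.4 and 33.6 TPM after 8 h and at 19.7, 18.3 and 28.7 TPM after 24 h. In THP1 it was at 17.1, 16.6 and 12.8 TPM, then 15.5, 20.4 and 11.5 TPM and then 14.3, 15.9 and 12.1 TPM. In MV4-11 replicates 1 and 2 lay below DMSO and replicate 3 above it at each time. *EDEM1* was the highest on average, at 53.3, 51.0 and 46.3 TPM, then 48.6, 49.6 and 57.6 TPM and then 57.0, 55.1 and 47.3 TPM in MV4-11. THP1 had 123, 123 and 124 TPM in DMSO, at 123, 133 and 119 TPM after 8 h and at 139, 133 and 131 TPM after 24 h, all 3 above DMSO (0.12 ± 0.113 SE, adjusted p = 0.750). *DERL3*, a derlin, was the lowest. It was at 4.28, 4.59 and 4.58 TPM in MV4-11 in DMSO, at 3.38, 2.93 and 5.65 TPM after 8 h and at 3.45, 3.41 and 5.39 TPM after 24 h. The THP1 libraries were at 3.54, 3.68 and 1.84 TPM, then 2.39, 3.23 and 0.940 TPM and then 2.13, 2.60 and 0.684 TPM, with the lowest value of each group in replicate 3 (24 h log2 fold change -0.56 ± 0.335 SE, adjusted p = 0.633). *SYVN1*, the ubiquitin ligase of the complex, was at 12.5, 12.6 and 11.6 TPM in MV4-11 in DMSO and at 14.5, 14.3 and 15.0 TPM after 24 h, all 3 above DMSO, and it and its adaptor *SEL1L* had 24 h values of 0.24 and -0.01 in MV4-11 and of -0.33 and -0.05 in THP1. *OS9*, a lectin of ERAD, *DERL1* and *DERL2* were at 0.16, 0.05 and -0.13 in MV4-11 and at -0.22, -0.23 and -0.20 in THP1.

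*SEC61B*, a subunit of the translocon, was at 77.5, 78.1 and 83.4 TPM in MV4-11 in DMSO, at 67.8, 64.2 and 88.3 TPM after 8 h and at 68.9, 67.7 and 77.8 TPM after 24 h. Values in THP1 were 93.8, 78.4 and 76.6 TPM, then 71.1, 78.2 and 58.4 TPM and then 70.6, 62.1 and 57.1 TPM. The groups separated only in THP1 at 24 h (-0.38 ± 0.152 SE, adjusted p = 0.542).

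**Figure D4:**
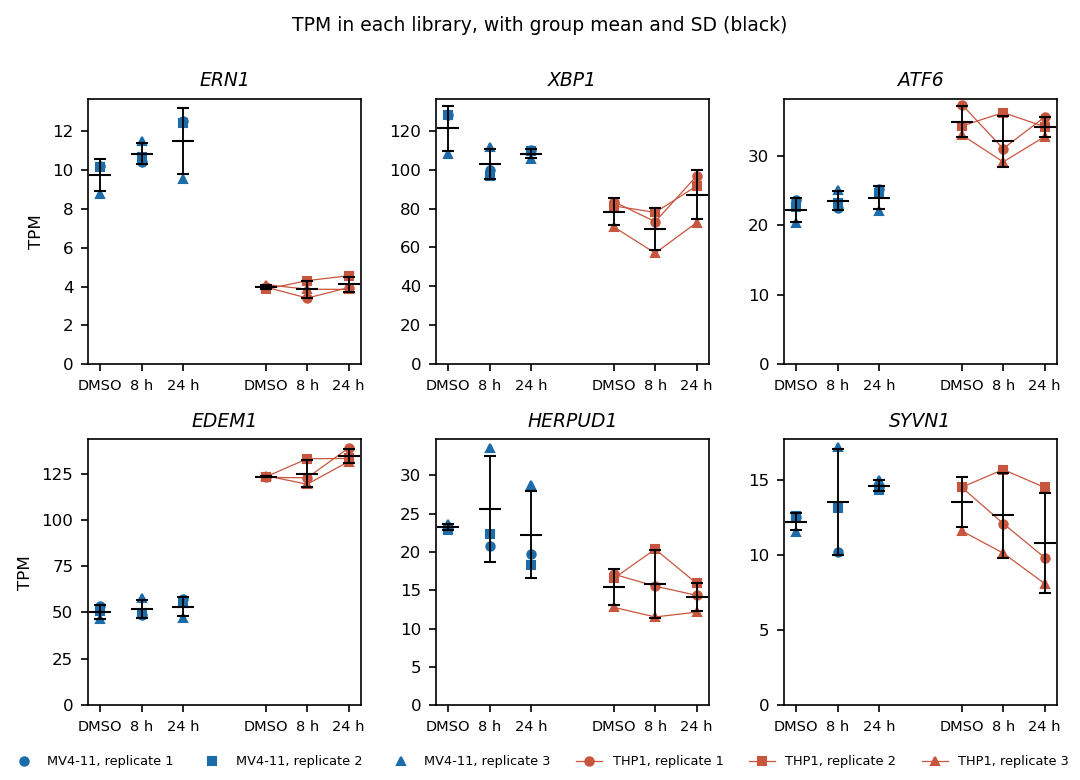
TPM (vertical axes from 0) of *ERN1*, *XBP1*, *ATF6*, *EDEM1*, *HERPUD1* and *SYVN1* in each library, with groups, colours, lines and bars as in the plot of the 6 chaperones. THP1 lies above MV4-11 for *EDEM1* and *ATF6* and below it for *ERN1*, *XBP1* and *HERPUD1* in DMSO, and IACS groups overlap DMSO in most panels.

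Between 8 h and 24 h of IACS, *SDF2L1* and *CRELD2* fell further in THP1 with the replicate block (log2 fold change -0.68, adjusted p = 0.00355, and -0.63, adjusted p = 0.00740), 2 of 36 genes against 0.373% of all genes called lower. Without the block limma called 0 of 36 in this comparison (0.00718% of all genes), with the same 2 lower at an unadjusted p below 0.05 (0.467%). In MV4-11 limma called 0 of 36 between the times (0% of all genes), and 0 were lower at an unadjusted p below 0.05 (0.236%). A Kruskal-Wallis test called 0 in each line.

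The fold changes of the lines were compared as an interaction in 1 fit of the 18 libraries. Limma called 0 of 36 genes at 8 h and 0 at 24 h (0.00708% of all genes at each time), and 0 passed the limits at an unadjusted p below 0.05. No Kruskal-Wallis test was made of the interaction. The lowest differences at 24 h, THP1 minus MV4-11, were -0.60 ± 0.364 (SE) for *SDF2L1*, -0.59 ± 0.329 for *CRELD2* and -0.57 ± 0.275 for *SYVN1* (adjusted p = 0.704, 0.699 and 0.694), and the highest was 0.30 ± 0.193 for *XBP1* (adjusted p = 0.706). A difference between the lines was not shown for any of the 36 genes. The median difference over the 36 genes at 24 h was -0.14 where that of all genes was -0.18, and with median-of-ratios scaling 0.08 where that of all genes was 0.01. Relative to all genes it was 0.05 and 0.07.

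The counts moved with the scaling and with replicate 3. With TPM scaled by median-of-ratios size factors, 4 of 36 were called lower in MV4-11 at 24 h (*HSPA5*, *HSP90B1*, *CALR* and *PDIA3*; 0.207% of all genes) and 4 in THP1 (*HSPA5*, *SDF2L1*, *MANF* and *CRELD2*; 0.418%). Without replicate 3 of each group, an alternative chosen after seeing the data, 4 of 36 were called lower in MV4-11 at 8 h (*HSPA5*, *SDF2L1*, *MANF* and *CALR*; 0.310%), 5 at 24 h (these and *PDIA4*; 0.605%) and 5 in THP1 at 24 h (*HSPA5*, *DNAJB11*, *SDF2L1*, *MANF* and *CRELD2*; 1.01%).

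The 7 genes with ERSE had median log2 fold changes of -0.24 and -0.39 in MV4-11 and -0.31 and -0.52 in THP1 at 8 h and 24 h. The 26 genes without it had -0.06, -0.07, -0.14 and -0.28 in the same order. They include the 3 genes with ERSE-II, among them *SDF2L1* with the lowest value (-1.14 in THP1 at 24 h). The sets also differ in role. *HSPA5*, *HSP90B1*, *CRELD2*, *CALR* and *CANX* have ERSE and are chaperones or co-chaperones, while no ERAD gene with a promoter entry had ERSE. A difference by element apart from role was not tested. Among genes with ERSE only *XBP1* in THP1 at 24 h was above 0 in these 4 comparisons. *MANF* and *DNAJB11* had neither ERSE nor ERSE-II in the window. With TPM as deposited and all libraries, limma called them lower in THP1 at 24 h with the block and not without it. A match of letters does not show that a factor binds there.

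Other genes of the ER were closer to the median of all genes than the chaperones. Of 19 further redox and isomerase genes tested in MV4-11 and 21 in THP1, 23 further ERAD genes, 25 genes of translocation and N-glycosylation and 12 further UPR regulators, limma called none in these comparisons, with or without the block. Their medians at 24 h were -0.02, 0.06, -0.03 and 0.09 in MV4-11 and -0.11, -0.09, -0.17 and -0.16 in THP1. *EIF2AK3*, which encodes PERK and was picked after its values were seen, was at 0.13 and 0.13 in MV4-11 and at -0.13 and -0.21 in THP1 at 8 h and 24 h.

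The ATF4 and CHOP branch had values above 0. Of its 14 genes tested, 14 were above 0 in MV4-11 at each time and in THP1 at 24 h, and 12 in THP1 at 8 h, with medians of 0.54, 0.40, 0.35 and 0.54. *CHAC1*, a glutathione-degrading enzyme and target of ATF4, rose in MV4-11 at 8 h and 24 h (1.47 and 1.07, adjusted p = 0.00315 and 0.0212 by limma), as did *PHGDH*, the entry enzyme of serine synthesis, at 24 h (1.03, adjusted p = 0.0334). In THP1 at 24 h *CHAC1*, *TRIB3*, *ASNS*, *PHGDH* and *SESN2* rose with the block, 5 of 14, by between 0.74 and 1.37, against 0.395% of all genes higher. Without the block limma called none of the 14 with TPM as deposited and 6 with median-of-ratios scaling (0.338% of all genes higher). *DDIT3*, which encodes CHOP and was also picked after its values were seen, had values of 0.60, 0.55, 0.71 and 0.35 and was not called.

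Chaperones outside the ER had values mostly below 0. Of 18 cytosolic chaperones, 18 and 17 were below 0 in MV4-11 and 17 and 17 in THP1 at 8 h and 24 h, beside the shares of all genes given above (33.1%, 34%, 83.6% and 72.8%), with medians of -0.20, -0.31, -0.21 and -0.36. With median-of-ratios scaling 14 of 18 were below 0 in THP1 at 8 h, where 49.4% of all genes were. *HSP90AA1*, the inducible cytosolic Hsp90, fell in THP1 at 24 h with the block (-0.59, adjusted p = 0.00428), at the edge of the fold limit. With the block and median-of-ratios scaling 0 of 18 were called there, and the lowest value was -0.47. In MV4-11 at 24 h, 2 of 18 were called lower with median-of-ratios scaling (0.207% of all genes). The block called 1 of 18 lower there (16 of 13542 genes), and limma without block or scaling called 0. The 9 mitochondrial chaperones had medians of -0.06, -0.14, -0.10 and -0.32, and *HSPE1*, the mitochondrial co-chaperonin, fell in THP1 at 24 h with the block (-0.79, adjusted p = 0.00176). Without the block their adjusted p were 0.498 and 0.421.

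**Figure D5:**
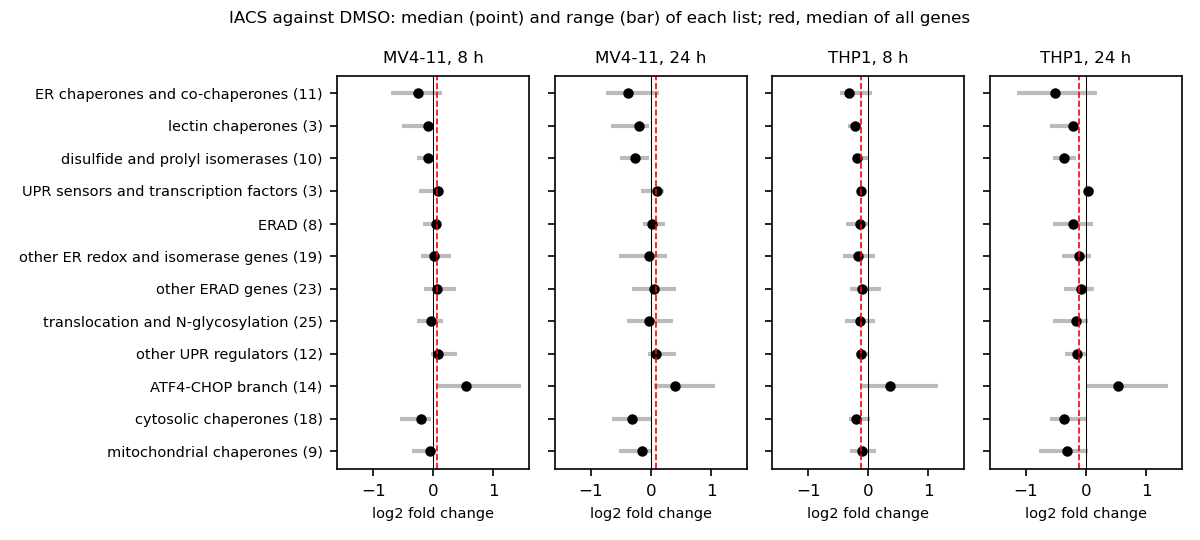
Median (point) and range (bar) of the log2 fold change of IACS against DMSO for each list, one panel per line and time, with 0 in black and the median of all genes tested dashed in red; numbers in brackets are genes tested in MV4-11. ER chaperones, disulfide isomerases and cytosolic chaperones lie left of the red line in each panel, the ATF4 and CHOP branch lies right of it, and the ERAD genes lie near it.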

How the data were processed

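RNA for 18 libraries of the cell lines MV4-11 and THP1 was sequenced by the authors as paired-end reads, which they trimmed and mapped to GRCh38 in CLC Genomics Workbench. The deposited table holds TPM per gene symbol, so the values are relative to a fixed sum in each library. The annotation release and strandedness were not given in the sources used here. The study calls the replicates independent without saying whether they came from separate cultures, and p-values measure the spread between these libraries.

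Columns were matched to samples by title. Genes averaging 1 TPM or more were tested on log2(TPM + 1) with limma 3.58.1 (R 4.3.3, variance trend), per line over 9 libraries, and over 18 libraries for the interaction and the difference in DMSO, so a fold change understates the change of low genes. Calls needed a Benjamini-Hochberg adjusted p below 0.05 over all genes and a change of more than 1.5-fold. The fit per line without a replicate block was tested on simulated data, and the block and the median-of-ratios scaling were not. Depth was estimated from TPM and GENCODE release 44 exon lengths, where 75.4% to 76.8% of low values came out within 0.02 of whole reads, and covers counting error only.

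Replicate numbers were taken to pair libraries where all 3 same-numbered pairs correlated above 0.1 in their deviations from group means. This held in THP1 for DMSO and 24 h (0.146, 0.157 and 0.324) and for 8 h and 24 h (0.183, 0.277 and 0.357), so the block is given there. It also held in MV4-11 for 8 h and 24 h (0.11, 0.408 and 0.441, but 0.0897 for the lowest after median-of-ratios scaling), where the block left 0 of the 36 genes called. The rule did not hold for the other pairs of groups. In MV4-11, DMSO and 24 h gave 0.269, 0.066 and 0.441, not all above 0.1. Libraries with different numbers were not compared in this way, so the rule does not show that the numbers pair the libraries. The block fit of a line used all 9 of its libraries. In THP1 it thus included the 8 h libraries, which did not pair with DMSO by this rule (0.044, 0.139 and 0.479). The 36 genes and all gene lists were chosen with earlier results of these data known. Values in every library are given for 8 set members, for members called in a comparison within a line (also with the block) and for the members of each role with the lowest and highest mean fold change, plus *SYVN1* and *SEC61B*. Of other lists, called genes and the ends of a list could be named. Alternatives were another pseudocount, filter, scaling and test, removal of 5 noncoding RNAs, the block, and leaving out libraries. One marker of another cell type is not reported here.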

Additional observations from a re-analysis of the deposited data

How the results depend on the processing

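Counts of the 36 genes called with limma depended on the setting. In MV4-11 at 8 h, 0 became 1 with the unadjusted p, 1 with Kruskal-Wallis and 4 without replicate 3 of each group. In MV4-11 at 24 h, 0 became 2 with the unadjusted p, 4 with median-of-ratios scaling, 2 without the 5 noncoding RNAs (0.155% of all genes lower), 2 with the replicate block (0.118%), 5 with the block and that scaling (0.303%), 1 with only the 6 libraries compared, 2 with Kruskal-Wallis, 5 without replicate 3 of each group, and between 0 and 1 on leaving out single libraries (*HSPA5* without 8 h replicate 3, *CALR* without 24 h replicate 3). In THP1 at 8 h, 0 became 1 (*MANF*) with the block without replicate 2. In THP1 at 24 h, 0 became 6 with the unadjusted p, 4 with median-of-ratios scaling, 2 without the noncoding RNAs (0.229% of all genes lower), 6 with the block, 4 with the block and that scaling, 5 with Kruskal-Wallis, 5 to 7 with the block without one replicate number, and 5 without replicate 3 of each group. Between 24 h and 8 h in THP1, 0 became 2 with the unadjusted p, the scaling, the block or both, 2 with the block without any one replicate number, and 1 without replicate 3 of each group. Without replicate 1 or 2 of each group the counts within lines were 0. MV4-11 24 h against 8 h and both interactions gave 0 throughout. The line difference in DMSO had 11 genes, and 8 to 16 on leaving out single libraries. The cause of these changes was not tested. The share of all genes called is not given for Kruskal-Wallis, only the 6 libraries compared, or fits without single libraries. It is also not given for the block without one replicate number. The same holds for THP1 24 h against 8 h with the scaling or without replicate 3 of each group. These counts thus have no background beside them. In MV4-11 the numbers did not pair DMSO with either time by the rule used. Of 1608 values of named genes under alternatives 1546 kept their sign. None of these genes was called against DMSO in the main fit, so no call could reverse. Leaving out a replicate number was chosen after seeing the data. Depth limits *DERL3* most, at a median of 121 reads.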
